A study of Mus musculus with 57 samples.

Results

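GATA6 binding at 2 h and at 4 h of induction was compared through 4 CUT&RUN peak lists, 2 replicates at each time point, of the 30 lists analysed in a series of 57 samples. The cells were KH2 mouse embryonic stem (ES) cells, labelled C57BL/6, that carry a doxycycline-inducible GATA6 transgene made of FLAG-tagged GATA6 and DsRed2 and labelled TRE:GATA6-DSREd2. At both time points the cells had left 2i medium for serum medium with LIF and doxycycline, so medium and inducer were the same. Hours since leaving 2i and hours since induction differed together and cannot be told apart. The transgene was driven by doxycycline in every cell and not by the embryo's own control of GATA6. The study detected mRNA of the cells' own Gata6 gene by 2 h, at about the transgene's level. Its CUT&RUN antibody was against GATA6, so the lists do not tell these 2 sources apart. The study states that replicates were done independently without saying whether they were separate cultures, so their spread may be technical. CUT&RUN uses an antibody to bring a nuclease to a protein on chromatin, and a peak is a stretch where the released fragments exceed those of a control library. The fold given throughout is the peak caller's ratio of fragments at the peak summit to the background expected there.

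The time points follow the names of the deposited lists. The lists named 2 h belong to samples recorded as 2 h. The lists named 4 h belong to samples whose record says 8 h, those named 8 h to samples recorded as 48 h, and those named 48 h to samples recorded as 4 h. Values under the records' time points stand in the closing section. A region of a time point was a merged stretch with a peak of both replicates, which gave 44776 regions at 2 h and 34347 at 4 h from 244216 peaks. A 2 h region was kept when it overlapped a 4 h region, lost when neither 4 h list had a peak in it, and unsettled when only single 4 h peaks reached it. A 4 h region was likewise kept, gained or unsettled. Lost means that no peak was called, not that no GATA6 was there.

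GATA6 is a zinc finger transcription factor that reads the GATA sequence and drives the primitive endoderm (PrE), the extra-embryonic layer that faces the cavity of the blastocyst. It can bind DNA that is wrapped in nucleosomes. NANOG and SOX2 hold the opposite fate, the pluripotent epiblast (Epi), and ES cells resemble Epi. GATA4, SOX17 and FOXA2 are transcription factors that follow GATA6 in the endoderm.

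The 201 bases around the summits of 8 regions that carry the contrasts described here are printed from the plus strand of the GRCm38 reference, with every match to the GATA sequence on either strand in capitals. That sequence was taken as GATA preceded by A or by T and followed by A or by G. They were chosen after their values were seen. The first of them was lost and the next 2 fell between 2 h and 4 h. Then come 2 gained regions and 3 that rose. Each is named by the nearest protein-coding gene. The strongest regions and the largest rises and falls below are named in the same way, with no limit of distance.
C130060K24Rik, chr6:65270899-65271099: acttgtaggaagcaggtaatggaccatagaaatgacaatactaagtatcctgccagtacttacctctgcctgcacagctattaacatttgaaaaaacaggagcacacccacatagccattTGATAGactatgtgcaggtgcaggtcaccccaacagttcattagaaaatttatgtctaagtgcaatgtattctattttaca
Foxd3, chr4:99636167-99636367: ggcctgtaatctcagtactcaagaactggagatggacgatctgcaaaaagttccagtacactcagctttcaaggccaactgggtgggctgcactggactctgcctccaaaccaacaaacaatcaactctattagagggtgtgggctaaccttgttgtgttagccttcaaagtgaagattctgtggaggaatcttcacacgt
Etv5, chr16:22442283-22442483: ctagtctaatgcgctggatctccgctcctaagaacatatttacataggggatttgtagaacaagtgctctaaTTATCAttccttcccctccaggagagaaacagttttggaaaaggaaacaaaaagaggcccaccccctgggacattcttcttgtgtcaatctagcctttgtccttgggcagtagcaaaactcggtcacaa
Trhde, chr10:114614946-114615146: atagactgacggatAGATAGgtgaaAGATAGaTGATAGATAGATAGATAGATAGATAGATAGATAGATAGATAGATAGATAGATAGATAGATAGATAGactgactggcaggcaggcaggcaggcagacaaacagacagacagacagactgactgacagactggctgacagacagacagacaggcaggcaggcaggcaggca
Bpifa3, chr2:154103534-154103734: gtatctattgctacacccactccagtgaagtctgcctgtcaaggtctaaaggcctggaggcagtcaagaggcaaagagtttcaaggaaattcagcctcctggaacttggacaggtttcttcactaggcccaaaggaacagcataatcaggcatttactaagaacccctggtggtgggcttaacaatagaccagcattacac
B4galnt2, chr11:95925993-95926193: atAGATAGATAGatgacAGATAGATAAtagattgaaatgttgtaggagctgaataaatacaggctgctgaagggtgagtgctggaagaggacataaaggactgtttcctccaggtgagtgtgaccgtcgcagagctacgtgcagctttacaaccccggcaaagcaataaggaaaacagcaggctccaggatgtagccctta
Foxa2, chr2:148013191-148013391: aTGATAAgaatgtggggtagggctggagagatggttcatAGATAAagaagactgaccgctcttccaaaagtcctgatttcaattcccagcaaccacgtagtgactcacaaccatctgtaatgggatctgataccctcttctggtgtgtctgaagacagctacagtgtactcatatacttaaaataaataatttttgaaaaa
Gata4, chr14:63231194-63231394: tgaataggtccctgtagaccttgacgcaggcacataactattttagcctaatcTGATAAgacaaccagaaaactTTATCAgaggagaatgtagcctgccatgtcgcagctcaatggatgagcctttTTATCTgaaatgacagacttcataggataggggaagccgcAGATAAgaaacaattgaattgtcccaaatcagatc
The lost and the falling regions printed here held at most 1 match each. The gained region near Trhde was a tandem repeat with 18 matches, whereas the gained region near Bpifa3 had none. The rising regions near B4galnt2 and Gata4 held 4 matches each, and that near Foxa2 held 2. The printed bases near Trhde, Bpifa3 and Foxa2 were mostly repeat-masked, and those of the other printed regions were not. The lost region near C130060K24Rik and the falling regions near Foxd3 and Etv5 held peaks of NANOG and SOX2 in both lists of uninduced cells. The 5 gained and rising regions held none. Other regions named below went against this contrast. The lost region near Amy2a5 and the falling region near Slc7a11 had no NANOG or SOX2 peak in uninduced cells. The rising regions near Dst and Amn held 1 GATA match each. A NANOG peak of uninduced cells lay in 4 of the 10 strongest lost regions and 5 of the 10 largest falls.

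The number of GATA6 peaks was lower at 4 h. The 2 h lists held 79358 and 62683 peaks and the 4 h lists 47894 and 54281, so the ranges did not overlap. The means were 71020 ± 11791 and 51088 ± 4516 (SD, n = 2 lists each), and the 2-sided exact permutation p was 0.333, the smallest that 2 lists against 2 can give. The median peak width was 413 and 337 bp at 2 h and 389 and 369 bp at 4 h, and the median fold was 5.24 and 5.40 against 5.28 and 5.70. In neither measure did the time points stand apart. The background coverage recovered from each list, which grows with sequencing depth, was 1.34 and 1.11 fragments per base at 2 h and 1.27 and 1.10 at 4 h. Read totals were not used. The GATA6 lists of uninduced cells held 86 and 882 peaks, and at most 0.223% of the kept regions held a peak of either of them.

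The strongest peaks were found at both times. Of the 10000 strongest peaks of a list, 98.3 to 99.6% overlapped some peak of each list of the other time. Membership of the strongest 10000 followed the time point: 79.8 to 81.4% of them were also among the strongest 10000 of their own replicate, and 69.9 to 71.5% among those of a list of the other time.

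Of the 2 h regions, 28287 (63.2%) were kept, 7895 (17.6%) were lost and 8594 (19.2%) were unsettled. Of the 4 h regions, 28730 (83.6%) were kept, 1586 (4.62%) were gained and 4031 (11.7%) were unsettled. The excess of lost over gained regions depended on the length of the lists. When each list was reduced to its 47894 strongest peaks, as many as the shortest list holds, 3777 regions were lost and 3160 were gained, and with the 10000 strongest peaks of each list the order turned, with 1108 lost and 1317 gained. Leaving out 1 list, so that the peaks of its partner alone made the regions, raised the number of lost regions to 22005 without 2 h replicate 1, to 32464 without 2 h replicate 2 and to 13366 without 4 h replicate 2. It raised the gained regions to 5023 without 2 h replicate 1, to 9162 without 4 h replicate 1 and to 7921 without 4 h replicate 2.

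Lost and gained regions were weak in the time point that had them. The median of the mean fold was 4.85 for lost regions at 2 h and 4.86 for gained regions at 4 h, against 8.92 for kept regions at 2 h and 7.55 at 4 h. Their median widths were 448 and 399.5 bp, against 812 and 674 bp for kept regions. Of the 2881 regions with a mean fold under 4 at 2 h, 50.7% were lost. That share was 13.2% at a fold of 6 to 8 and 0.981% at 10 to 15. Only 1 of the 2654 regions of fold 15 to 20 and 1 of the 3167 regions above were lost. At 4 h the gained share went from 14.0% under a fold of 4 to 0.281% at 10 to 15.

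**Figure D1:**
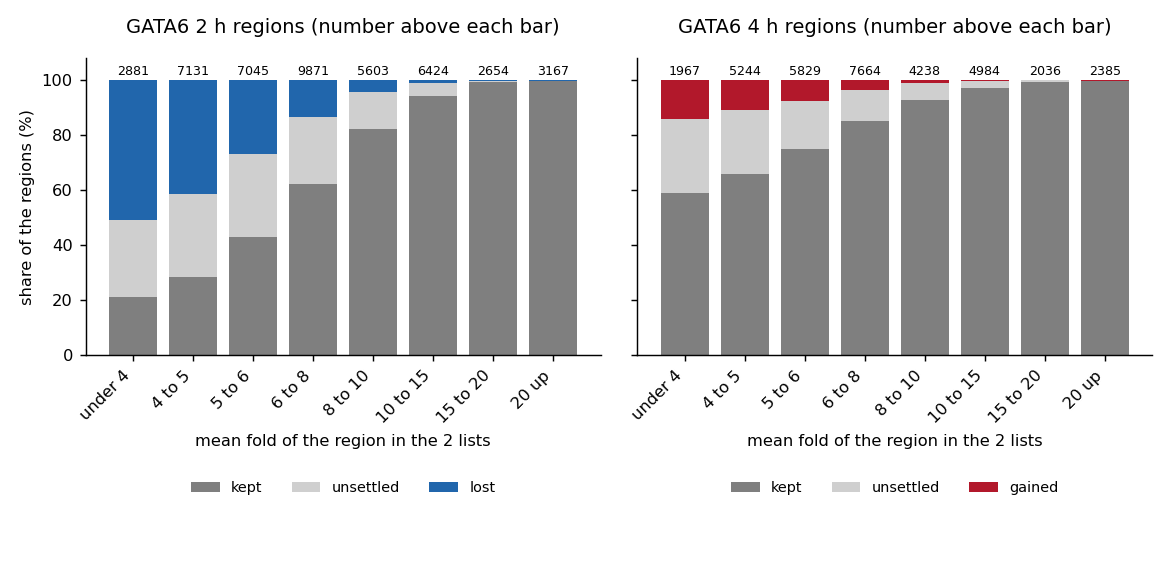
Share of GATA6 regions that were kept, unsettled and lost (2 h, left) or gained (4 h, right), by the mean fold of the region in the 2 lists of its time point, with the number of regions above each bar. The lost share falls from 50.7% below a fold of 4 to 0.981% at 10 to 15, and the gained share from 14.0% to 0.281%.

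The strongest lost region, near Amy2a5, had folds of 26.9 and 16.1 at 2 h, lay 1382431 bp from that gene, wholly in repeat-masked sequence and had a peak in both GATA6 8 h lists. It was the exception among the 10 strongest lost regions, of which 9 had no peak in either 8 h list. That near C130060K24Rik had folds of 20.1 and 15.6, and regions near Lsm6 and near Mapk10, which encodes the neuronal kinase JNK3, followed with 15.7 and 12.7 and with 17.1 and 10.9. The 10 strongest lost regions had mean folds of 12.2 to 21.5, 3 of them held a GATA match and 5 had a SOX2 peak in uninduced cells.

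The strongest gained region lay in an intron, 186318 bp from the TSS of Trhde, a gene for a hormone-degrading peptidase. Its folds were 16.7 and 26.1 at 4 h. Regions near Bpifa3 (10.6 and 18.1), Syt10 (11.4 and 15.9) and Oprd1 (11.9 and 13.8) came next. The 10 strongest gained regions had mean folds of 11.1 to 21.4. All 10 had peaks in both GATA6 8 h lists and none had a NANOG or SOX2 peak in uninduced cells. The window held a GATA match in 6 of them, with 10 or more matches in 4. It was mostly repeat-masked in 6 of them, against 2 of the 10 strongest lost regions.

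Position relative to genes was alike in kept and lost regions, and gained regions lay farther out. The nearest protein-coding transcription start site (TSS) lay within 5000 bp for 21.3% of kept, 22.7% of lost and 13.9% of gained regions, and within 1000 bp for 10.2, 11.1 and 5.11%. Median distances were 23954, 24334 and 36182 bp. Introns held 49.7, 48.8 and 49.1% of the summits and exons 4.66, 6.27 and 3.53%. The median GC content of the 201 bases was 47.3% in kept and lost regions and 45.3% in gained regions. Among regions of like strength, with a mean fold of 4 to 6, the share within 5000 bp of a TSS was 22.5% for lost against 25.0% for kept regions at 2 h, and 14.3% for gained against 25.6% for kept regions at 4 h. Regions are not replicates, so these shares are given without a test. The gained minus lost difference of -8.79 percentage points was -4.23 with equal numbers of peaks, -1.23 with the 10000 strongest, -2.35 without 2 h replicate 1 and -4.22 without 4 h replicate 1.

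The classes also differed in the GATA sequence. At least 1 match lay within 100 bp of the summit in 71.7% of gained, 59.2% of kept and 43.4% of lost regions. The gained minus lost difference of 28.3 percentage points was 4.75 without 4 h replicate 2 and 10.5 without 4 h replicate 1. Windows of the same length 2000 bp away held a match in 33.5, 32.6 and 33.4%, and 21.5% of 32851 RefSeq promoter windows of that length held one. At a mean fold of 4 to 6 the share was 71.0% for gained against 50.7% for kept regions at 4 h, and 43.1% for lost against 57.0% for kept regions at 2 h. A further match was found in 42.6% of gained, 25.1% of kept and 11.7% of lost regions. Tandem repeats of the sequence, taken as 10 or more matches, made up 134 of the 1586 gained, 359 of the 28287 kept and 9 of the 7895 lost regions. How well short fragments map to such repeats was not tested. Over whole lists, 49.5 and 51.6% of the 2 h peaks and 54.6 and 57.8% of the 4 h peaks held a match, without overlap between the times (exact permutation p = 0.333).

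Most other sequences followed another order. The AP-1 sequence TGANTCA lay in 18.1% of lost, 13.4% of kept and 6.12% of gained regions, against 6.34, 5.98 and 6.08% of their flanks. The orphan nuclear receptor sequence CAAGGTCA, which ESRRB reads, lay in 4.10, 3.38 and 1.70%, and the KLF sequence (GGGCGTGG or GGGTGTGG) in 5.80, 6.41 and 3.03%. The POU sequence ATGCAAAT was found in 3.18, 2.78 and 1.70%, the SOX sequence ACAATG in 14.8, 15.2 and 11.1% and the TEAD sequence GGAATGT in 4.69, 5.61 and 4.79%. All were searched on both strands.

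Peaks of the pluripotency factors before induction lay mainly in kept and lost regions. Peaks of the NANOG lists of uninduced cells lay in 17.9 and 24.3% of kept regions (replicates 1 and 2), in 10.6 and 15.8% of lost regions and in 0.315 and 1.07% of gained regions. For SOX2 the shares were 36.4 and 34.5% of kept, 25.8 and 23.1% of lost and 3.97 and 2.84% of gained regions. At a mean fold of 4 to 6 the kept and lost regions of 2 h were close in SOX2, with 24.3 and 21.5% against 25.4 and 22.2%. At a mean fold of 4 to 6, NANOG peaks lay in 9.63 and 14.9% of lost against 5.27 and 8.92% of kept regions at 2 h, so the order of kept and lost turned once their strength was alike. Gained regions of that strength had 0.402 and 1.31%, against 12.97 and 18.96% of kept regions at 4 h. The gained minus lost difference, averaged over both NANOG lists, was -12.5 percentage points, and it was -3.17 without GATA6 2 h replicate 1 and -5.12 without 2 h replicate 2. In the NANOG lists of 2 h the shares were 69.3 and 49.6% of kept, 40.8 and 19.8% of lost and 6.75 and 1.51% of gained regions. At a mean fold of 4 to 6 kept and lost regions of 2 h lay close there too, with 40.0 and 19.3% against 37.8 and 16.9%. In those of 4 h they were 33.9 and 33.2%, 3.72 and 3.81%, and 2.21 and 2.40%. The 2 h NANOG lists thus held far more of the lost regions than the 4 h lists did. The numbers of peaks in these lists also differed, 52285 and 26742 for NANOG at 2 h and 14911 and 14528 at 4 h, and their part in this difference was not tested.

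Later GATA6 lists separated lost from gained regions. Peaks of the 8 h lists lay in 65.1 and 68.4% of kept regions, 50.1 and 52.6% of gained regions and 3.10 and 3.72% of lost regions. At a mean fold of 4 to 6 they lay in 2.75 and 3.91% of lost against 48.6 and 53.7% of kept regions at 2 h, and in 44.4 and 47.7% of gained against 33.0 and 37.7% of kept regions at 4 h. The order of gained and kept regions thus turned at like strength. Of the 48 h lists, which hold 5933 and 9767 peaks and come from cells that had left doxycycline, peaks lay in 10.8 and 13.8% of kept, 6.43 and 8.01% of gained and 0.532 and 1.11% of lost regions. GATA4 at 24 h gave 15.8 and 10.0%, 7.19 and 3.59%, and 1.79 and 0.494%. SOX17 at 24 h, an endoderm factor with a SOX rather than a GATA domain, did not separate lost and gained regions: 35.6 and 44.3% of kept, 10.4 and 16.8% of gained and 11.4 and 16.9% of lost regions held its peaks.

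**Figure D2:**
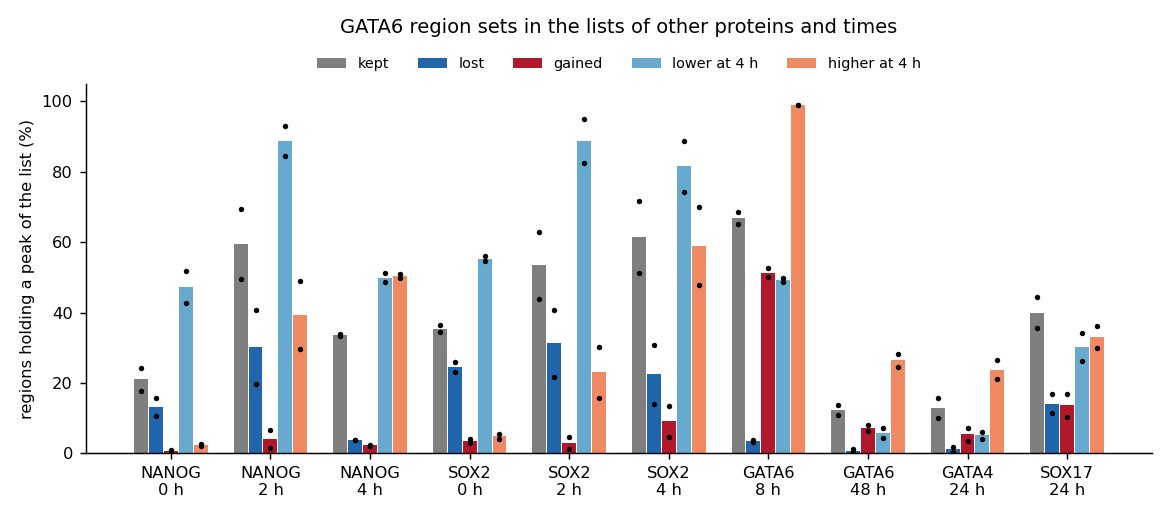
Share of 5 sets of GATA6 regions that held a peak of the named list. Bars give the mean of the 2 replicate lists and points each list. Gained regions and regions higher at 4 h held peaks of the NANOG and SOX2 lists of uninduced cells in 0.315 to 5.55%, whereas 99.1% of the regions higher at 4 h were in each GATA6 8 h list.

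To ask whether GATA6 changed at sites bound at both times, the log2 fold was compared at the 28534 merged regions that held a peak of all 4 lists. Replicates correlated across these regions with r = 0.844 at 2 h and 0.847 at 4 h, and the means of the 2 times with r = 0.786, as a description, since regions are not independent. With each list centred on its median region, limma called 1405 regions (4.92%) higher and 589 (2.06%) lower at 4 h at an adjusted p of 0.05. This is a statement about regions relative to the median region. The uncentred fold was lower at 4 h by 0.22 on the log2 scale at the median region, and without centring 329 regions (1.15%) were called higher and 725 (2.54%) lower, so the balance of the calls turned. No called region changed sign: 329 of the 1405 and 554 of the 589 were called in the same direction without centring. Leaving out 1 list gave 917 to 1064 higher and 243 to 560 lower regions. The counts fell by over 1.5 times without 4 h replicate 1 (918 higher), without 4 h replicate 2 (917 higher), without 2 h replicate 1 (243 lower) and without 2 h replicate 2 (308 lower). In every one of these 4 fits 380 of the higher and 61 of the lower regions were called again.

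**Figure D3:**
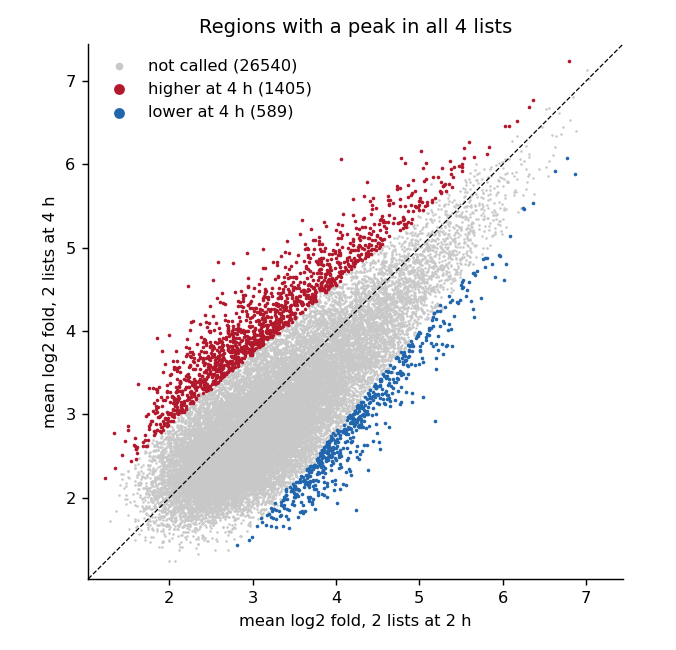
Mean log2 fold of the 28534 regions with a peak in all 4 lists, 2 h on the horizontal and 4 h on the vertical axis, before centring. The 1405 regions called higher at 4 h lie above the dashed line of equal fold and the 589 called lower lie below it.

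Regions that rose and regions that fell differed in the sequence and in the earlier binding they carried, neither of which entered the test. A GATA match lay in 79.9% of the regions that rose, 59.4% of all those tested and 49.1% of those that fell, and 2 or more matches in 55.2, 25.6 and 13.4%. The flanks 2000 bp away held a match in 33.4, 32.6 and 32.8%. The AP-1 sequence lay in 5.69% of the regions that rose, 13.5% of all those tested and 21.7% of those that fell. NANOG peaks of uninduced cells lay in 2.21 and 2.78% of the regions that rose and in 42.8 and 51.8% of those that fell, against 17.9 and 24.4% of all tested. SOX2 peaks of uninduced cells lay in 5.55 and 4.06% against 56.0 and 54.7%, and in 36.7 and 34.7% of all tested. In the 4 h NANOG lists the shares lay close together. A NANOG peak lay in 50.8 and 49.9% of the regions that rose and 51.1 and 48.7% of those that fell. Of all tested regions 33.7 and 33.1% held one. In the 2 h NANOG lists the shares had been 48.9 and 29.7% of the rising and 93.0 and 84.4% of the falling regions. All tested regions had 69.5 and 49.6%. Each GATA6 8 h list had a peak in 99.1% of the regions that rose, and the lists had one in 48.7 and 49.9% of those that fell. Over all tested regions the 8 h shares were 64.6 and 68.0%. At 48 h they were 24.5 and 28.3% of rising, 4.24 and 7.13% of falling and 10.7 and 13.8% of all tested regions. Averaged over all 4 lists, rising and falling regions were stronger than all tested, with a median mean fold of 12.8 and 12.7 against 8.29. Rising regions were selected for a higher fold at 4 h and falling regions for a higher fold at 2 h. The part of strength in these shares, averaged or at a single time, was not tested. A TSS lay within 1000 bp of 2.28% of the regions that rose and 4.07% of those that fell, against 10.2% of all tested.

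The log2 difference moved stepwise with the number of GATA matches. The median over the 11599 regions with no match was -0.08, and 2.43% of these rose and 2.59% fell. With 2 matches the median was 0.11, with 3 or 4 it was 0.29, and with 5 to 9 it was 0.77 over 382 regions, of which 39.5% rose and 0.785% fell. In the 392 regions with 10 or more matches it was 0.88, and 163 of them rose and 0 fell. Without those tandem repeats, 1242 regions rose. With a NANOG peak in both lists of uninduced cells the median was -0.28 over 4421 regions, of which 0.588% rose and 5.43% fell, against 0.11 with no such peak, where 6.52% rose and 1.303% fell. Where NANOG had been in both lists, the median was -0.30 without and -0.26 with a GATA match. Where it had been in neither, the medians were 0.03 and 0.16. Without centring, the median of regions with 2 matches and that of regions with no NANOG peak turned negative, at -0.13 in each case, those of the NANOG-free regions with and without a match were -0.07 and -0.21, and 3 or 4 matches gave 0.05, 5 to 9 gave 0.53 and 10 or more gave 0.65.

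**Figure D4:**
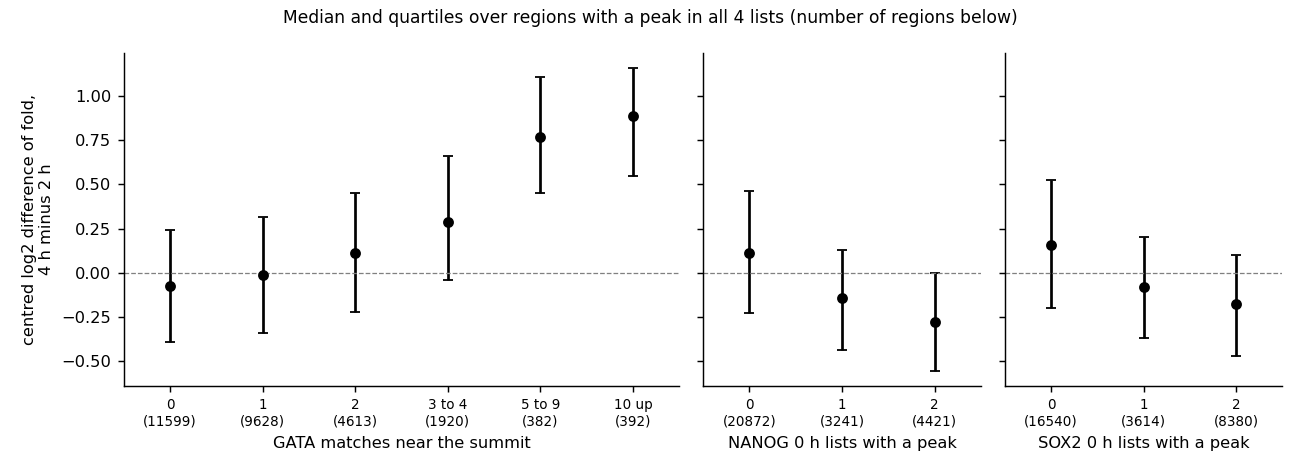
Centred log2 difference of the GATA6 fold, 4 h minus 2 h, over regions with a peak in all 4 lists, grouped by the number of GATA matches within 100 bp of the summit (left), and by how many of the 2 NANOG (middle) or SOX2 (right) lists of uninduced cells had a peak there. Points are medians, bars the quartiles over regions, and the number of regions stands below. The median rises from -0.08 with no match to 0.88 with 10 or more, and falls from 0.11 to -0.28 with NANOG.

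The largest rise lay in an intron near Dst, which encodes a cytoskeletal linker, with folds of 5.61 and 3.91 at 2 h and 20.3 and 26.6 at 4 h, a centred log2 difference of 2.55 ± 0.30 (SE; limma adjusted p = 1.61e-05). The region near B4galnt2 went from 7.72 and 4.65 to 28.3 and 28.6 (2.48 ± 0.29). That near Lck, a kinase gene of T cells, lay in repeat-masked sequence with 14 GATA matches and went from 19.9 and 13.9 to 64.3 and 69.8 (2.25 ± 0.21). In all of these the lists of the 2 times did not overlap. The other large rises were near Dhx40, Mum1l1, Tmem176b, Myl12b, Lpin1, Lrrn3 and Otud1, with differences of 2.09 to 2.33. The 10 largest rises lay 1086 to 1049790 bp from the nearest protein-coding TSS. None of the 10 had a NANOG or SOX2 peak in uninduced cells, 9 held a GATA match, and all 10 had a peak in both GATA6 8 h lists. In 3 of them the window held 10 or more GATA matches and in 4 it was mostly repeat-masked, against 0 and 1 of the 10 largest falls. The calls of the 10 largest rises held without centring and without each list.

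The largest fall lay 729 bp from the TSS of Pura, with mean folds of 19.8 at 2 h and 3.62 at 4 h (-2.15 ± 0.33, limma adjusted p = 0.000257). The region near Foxd3, a forkhead factor of pluripotent cells and neural crest, went from 38.04 and 34.6 to 9.66 and 5.91 (-2.03 ± 0.29). Regions 251292 bp from Slc7a11, a cystine transporter gene, and 200696 bp from Bmp2, a BMP ligand gene, also fell. They went from 20.5 and 21.3 to 4.84 and 5.23 and from 22.7 and 23.4 to 5.26 and 6.80. The other large falls were near Psd2, Rpap3, Dhx35, Myo1a, Fam102a and Lmnb1. Of the 10, 5 had a NANOG and 5 a SOX2 peak in uninduced cells, 2 held a GATA match and 7 had no peak in either 8 h list. The call near Dhx35 was lost without 2 h replicate 1 (limma adjusted p = 0.0679), and the other 9 held without each list.

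Among the strongest regions of all 4 lists 1 of 10 passed the test. The region in an intron 136523 bp from Bub3, a spindle checkpoint gene, had folds of 140 and 119 at 2 h and 134 and 147 at 4 h. That 101881 bp from Med13l had 144, 120, 122 and 138. Of the 10 with the highest mean fold, only that near Uaca passed the threshold (88.0 and 77.4 to 104 and 114, 0.64 ± 0.14, limma adjusted p = 0.0040), and it did not without centring (adjusted p = 0.402). The others, near Cd59a, Spry2, Rai14, Dnmt3a, Lpcat3, Itpr1 and Sppl2a, had differences of -0.24 to 0.37 and did not pass. Among these genes, Dnmt3a encodes a DNA methyltransferase and Spry2, 93989 bp from its region, an FGF feedback inhibitor.

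Regions near PrE and near Epi genes were set beside the regions near any gene. A region was given to the gene whose TSS was nearest, within 50000 bp. Among 1099 tested regions near 579 PrE genes, of which 570 were annotated, 58 rose (5.28%) and 15 fell (1.36%), and among 733 near 221 Epi genes, of which 218 were annotated, 5 rose (0.682%) and 18 fell (2.46%). For all 19263 regions near a gene, 4.35% rose and 1.82% fell, which is the background for the shorter lists below as well. The share that rose near PrE genes and the share that fell near Epi genes were each within 1 percentage point of it, and the share that rose near Epi genes lay below it. Both gene lists come from the study's supplement and hold genes of the 2 lineages in blastocysts. The median centred difference was 0.11 near PrE genes, -0.12 near Epi genes and 0.01 near all genes, and uncentred it was -0.12, -0.36 and -0.23. At least 1 region that rose lay near 8.25% of PrE, 2.29% of Epi and 3.54% of all genes, and 1 that fell near 2.46, 7.80 and 1.56%. Lost regions lay near 26.5% of PrE, 46.8% of Epi and 18.1% of all genes, gained regions near 7.02, 6.88 and 3.87%, and kept regions near 66.7, 83.9 and 39.4%, each share being larger than that of all genes. Counted over regions the order differed: 14.2% of the 2 h regions near PrE genes and 15.1% of those near Epi genes were lost, against 17.3% near all genes, and 3.36 and 2.02% of the 4 h regions were gained, against 3.95%.

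Among 7 PrE regulators, 6 had GATA6 regions at both times and Hnf4a had none. Of their 18 tested regions, 3 rose (16.7%) and 0 fell, and the median difference was 0.43. The region 32657 bp from the TSS of Foxa2, on chr2:148012802-148014087, had folds of 6.97 and 6.84 at 2 h and 20.5 and 23.8 at 4 h (1.91 ± 0.29, limma adjusted p = 0.000214). A region 13954 bp into Gata4, on chr14:63230607-63232157, had 8.04 and 7.10 and then 18.3 and 19.6 (1.56 ± 0.29, adjusted p = 0.00125). Neither had NANOG or SOX2 peaks in uninduced cells, and both were in the 8 h and 48 h lists. The bases around the summit were mostly repeat-masked at this Foxa2 region, whereas no base was masked at this Gata4 region. How well fragments map to the Foxa2 region was not tested. At Gata6 itself an intronic region 636 bp from the TSS had 10.0 and 7.18 and then 13.3 and 17.9 (1.10 ± 0.29, adjusted p = 0.0201), a call lost without centring (0.165). The strongest region of Gata4, with 46.4, 42.9, 37.5 and 47.4 in the order of the lists, did not pass (adjusted p = 0.681). The strongest near Foxa2 had 24.9, 18.4, 14.1 and 25.3 and did not pass either (adjusted p = 0.933). That near Gata6 had 36.7, 32.6, 28.3 and 45.5 and did not pass (adjusted p = 0.442). Nor did the strongest near Sox17, with 4.96, 9.27, 13.6 and 9.96 (adjusted p = 0.0819), Sox7 or Foxq1.

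The receptor and matrix genes of the PrE all had regions in all 4 lists. Of 58 tested regions near these 12 genes, 7 rose (12.1%) and 1 fell (1.72%). Near Pdgfra, the receptor that marks PrE cells, 3 regions rose. The largest rise, 33954 bp upstream, had folds of 19.14 and 14.7 at 2 h and 36.4 and 40.8 at 4 h (1.44 ± 0.22, adjusted p = 0.000257). Around its summit 69.2% of the bases were repeat-masked and no GATA match was found. The masked share was 0% at the rising regions near Amn and Lamb1 and 38.8% at that near Lamc1 described below. The region 3076 bp upstream of Amn, which encodes the membrane partner of the uptake receptor cubilin, went from 10.3 and 6.18 to 16.99 and 22.1 (1.52 ± 0.29, adjusted p = 0.00183). In Lamb1, a laminin chain of the basement membrane, folds of 6.16 and 10.2 became 19.098 and 16.9 (1.41 ± 0.32). Lamc1, another laminin chain, had 20 tested regions and moved in both directions: a region of 12 GATA matches rose from 18.3 and 13.3 to 23.4 and 25.4, and its strongest region, 44165 bp upstream with NANOG and SOX2 peaks in both uninduced lists, fell from 103 and 94.7 to 60.0 and 60.8 (-0.48 ± 0.15, adjusted p = 0.0487). Lost regions lay near 5 of the 12 genes. The strongest near Sparc and near Lama1 had folds of 9.41 and 7.77 and of 5.72 and 5.13 at 2 h. Of the 81 regions near the 12 genes at 2 h, 14.8% were lost, below the 17.3% near all genes. Gained regions lay near 2 of the genes and made up 4.41% of the 68 regions at 4 h, against 3.95% near all genes.

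The 12 pluripotency regulators had 88 tested regions, of which 2 rose (2.27%) and 5 fell (5.68%). The falls were near Klf2 (34.6 and 29.9 to 14.0 and 17.8), Prdm14 (29.5 and 24.2 to 10.1 and 16.2), Tbx3 (18.4 and 13.1 to 3.96 and 9.42, one of 2) and Esrrb (17.97 and 12.0 to 6.03 and 5.11). Centred differences were -0.79 ± 0.23, -0.82 ± 0.25, -1.11 ± 0.33 and -1.17 ± 0.32. Another Esrrb region, 1010 bp from the TSS and with 11 GATA matches, rose from 8.15 and 5.51 to 10.1 and 15.0. The region 4732 bp upstream of Nanog had 26.7, 25.2, 14.5 and 21.2 in the order of the lists, and the region near Pou5f1 16.1, 12.6, 10.1 and 13.6, and neither passed (adjusted p = 0.458 and 0.955). Lost regions lay near 7 of the 12 genes, among them Nanog, Sox2 and Esrrb, the strongest being that near Tbx3 with folds of 6.84 and 5.21, and a gained region only near Klf2. Of the 127 regions near the 12 genes at 2 h, 11.8% were lost, below the 17.3% near all genes.

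In the FGF pathway, which steers inner cell mass cells toward PrE, 3 of 52 tested regions rose (5.77%) and 1 fell (1.92%), near the background of 4.35 and 1.82%. The strongest region near Fgfr3, a receptor gene, rose, with 78.7 and 66.2 at 2 h and 85.2 and 98.6 at 4 h (0.58, adjusted p = 0.0123, and 0.498 without centring), a call lost in each fit without 1 list (highest adjusted p 0.0618) other than that without 4 h replicate 2. Another near Fgfr3 went from 4.76 and 5.13 to 10.9 and 12.6. The fall lay 2664 bp upstream of Etv5, an ETS factor gene that answers to FGF, from 32.6 and 33.4 to 10.2 and 15.2 (-1.17 ± 0.25, adjusted p = 0.00374), and a weaker region 20256 bp upstream rose from 9.83 and 8.999 to 15.9 and 14.7. Genes of other fates had called regions too. Of 22 tested regions near 8 trophectoderm genes, 9.09% rose and 4.55% fell. Those near Gata3 (7.65 and 8.19 to 15.9 and 12.8) and Krt18 rose and one near Tfap2c fell (13.4 and 9.54 to 4.69 and 3.70). Of 8 near genes of unrelated lineages, 2 rose (25%), both near Neurog1, a neuronal factor gene, the larger from 16.4 and 12.7 to 29.1 and 33.3. The shares that rose near both groups of genes lay above the 4.35% near all genes, and both rest on few regions. A larger share of rises was thus not particular to the PrE lists. Gfap and Myf5 had no region at either time.

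Of the 21 called regions near these short lists that are plotted, 14 higher and 7 lower, 11 were also called without centring and 7 in every fit without 1 list: those near Foxa2, Gata4, Amn, Pdgfra, the weaker of Fgfr3, Neurog1 and the fall near Etv5. The highest adjusted p of the others came without 4 h replicate 2 for Gata6 (0.107), Esrrb higher (0.187), Lamc1 lower (0.281) and Tfap2c (0.196), without 2 h replicate 1 for Lamb1 (0.0996) and Esrrb lower (0.182), without 2 h replicate 2 for Lamc1 higher (0.134), Klf2 (0.134) and Tfcp2l1 (0.215), and without 4 h replicate 1 for Prdm14 (0.246), Tbx3 (0.363), Etv5 higher (0.278), Gata3 (0.265) and Krt18 (0.234).

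**Figure D5:**
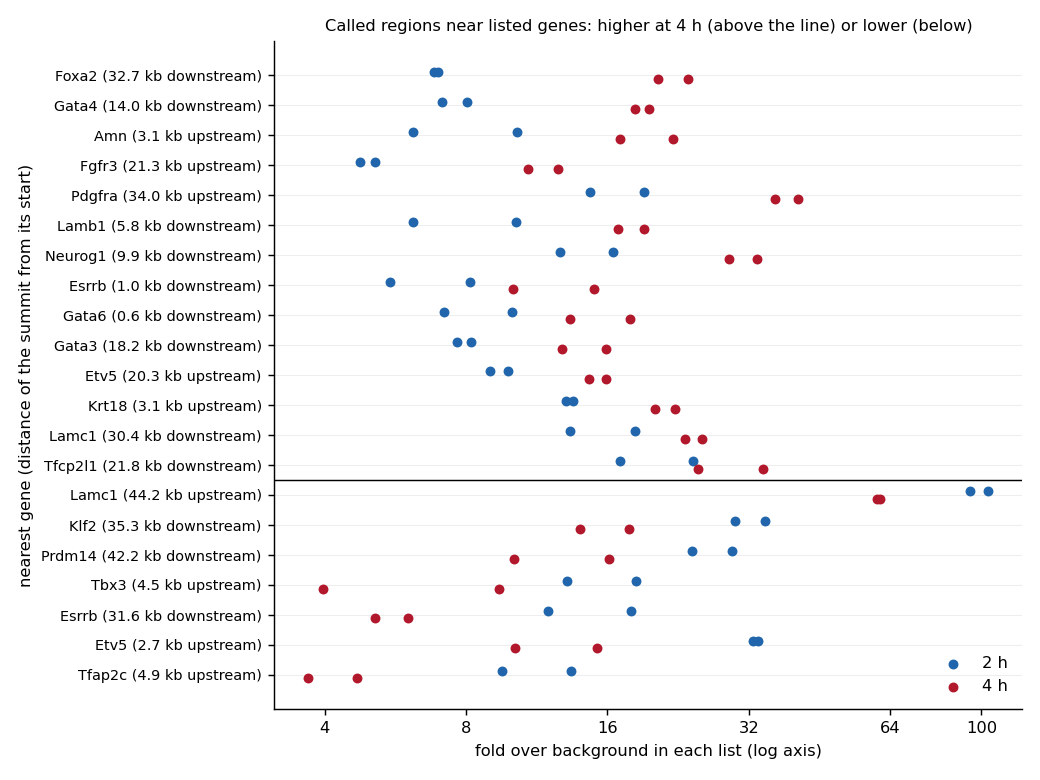
Fold in each of the 4 lists (log axis) for the called regions near genes of the short lists, 14 higher at 4 h above the line and 7 lower below it, each named by its nearest gene and the distance of the summit from the TSS. Points of the 2 times do not overlap in any row, the closest being Tfcp2l1 with 24.4 at 2 h and 24.9 at 4 h.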

How the data were processed

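CUT&RUN peak lists of GATA6 at 2 h and 4 h of doxycycline induction were analysed, 2 replicate libraries each, with the deposited lists of GATA6 at 0, 8 and 48 h, NANOG, SOX2, GATA4 and SOX17 for comparison. Reads had been aligned by the authors to mm10 (GRCm38) with Bowtie2 and handled with SAMtools and Picard. They kept duplicates, removed blacklisted regions, and called narrow peaks with MACS for each library against 1 control library. The deposited fold is a ratio at the summit, the deposited p-value and q-value are on a −log10 scale, and the deposited score and summit offset complete the files. The lists give no read totals. Depth was therefore read from the background coverage that the deposited folds and p-values imply.

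Regions were merged peaks with an overlap of at least 1 bp. Log2 folds of the strongest peak of each list were centred on each list's median and tested with limma 3.58.1 (R 4.3.3, moderated by eBayes with a trend, Benjamini-Hochberg over 28534 regions, threshold 0.05). The fit was tested on simulated data. The distance to the TSS used GENCODE protein-coding transcripts, and motifs were searched 100 bp to each side of the summit in the reference sequence with pysam 0.24.0. Peaks on the mitochondrial genome, 2 per list, had no annotation here. List-level values were tested with a 2-sided exact permutation test (SciPy 1.17.1).

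Members and gene lists were chosen with earlier results of these data known, and 2 genes of the short lists are not reported here. Regions named are the 10 strongest of each class, the 10 largest rises and falls, and the strongest of each class near the short-list genes. The comparison of regions with a mean fold of 4 to 6 and the removal of repeats with 10 or more GATA matches were added after seeing the data.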

Additional observations from a re-analysis of the deposited data

How the results depend on the processing

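The differences between gained and lost regions in GATA matches, TSS distance and NANOG peaks kept their sign in the alternatives tried for them, and no called difference of a named region changed direction. The excess of lost over gained regions turned with the 10000 strongest peaks. With the 10000 strongest peaks of every list there were 7967 regions at 2 h and 8076 at 4 h, 72.7% of the 2 h regions were kept, 1108 were lost and 1317 were gained. With as many peaks as the shortest list holds, 73.1% were kept, 3777 lost and 3160 gained. With the peaks of either replicate there were 94205 and 66210 regions, 52.4% kept, 44872 lost and 15085 gained. Under the records' time points, where 4 h is the pair of lists named 48 h, there were 4198 regions at 4 h, 5.67% of the 2 h regions were kept, 39929 were lost, and limma called 662 regions higher and 645 lower among 2572. Leaving out 1 list gave 44776 to 79358 regions at 2 h, 34347 to 54281 at 4 h, 40.5 to 76.0% kept, 10743 to 32464 lost and 2252 to 9162 gained, since a single list then makes the regions.

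The share of gained minus that of lost regions with a GATA match, 28.3 percentage points, was 24.8 with equal peak numbers, 22.9 with 10000 peaks, 10.2 with either replicate, 21.3 by the records, 17.6 within 50 bp of the summit, 25.7 without tandem repeats, and 4.75 to 30.4 without 1 list (4.75 without 4 h replicate 2 and 10.5 without 4 h replicate 1). For a TSS within 5000 bp the difference, -8.79, was -4.23, -1.23 and -4.92 in the first 3 of these, -6.03 within 1000 bp, and -9.71 to -2.35 without 1 list. For a NANOG peak in uninduced cells, -12.5, it was -15.8, -37.7, -4.05 and -18.3 in the first 4, -17.7 with a −log10 q-value of at least 5, -11.4 at a mean fold of 4 to 6, and -12.9 to -3.17 without 1 list. The cause was not tested.

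The 1405 higher and 589 lower regions became 329 and 725 without centring, 1156 and 668 after quantile normalization, 702 and 214 without the trend, 1761 and 895 with a replicate block, and 917 to 1064 and 243 to 560 without 1 list. The replicate numbers share only a number: the deviations of same-numbered lists correlated at -0.003, and all called regions stayed called with the replicate block. Weak peaks rest on as few as 6 fragments at the summit, so a lost or gained region of low fold is near the limit of these lists.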
